A study of Mus musculus with 6 samples.

Results

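The genes of mitochondrial ribosomal proteins were followed in LSK cells, the lineage-negative, Sca1-positive, cKit-positive fraction of mouse bone marrow in which hematopoietic stem cells and early progenitors are found. Members were all genes whose symbol begins with Mrpl or Mrps and a number and that had a probe set of their own on the Affymetrix MoGene 2.0 ST array, 71 of the 22180 genes measured, of which 43 were Mrpl genes and 28 were Mrps genes. Where a gene had several such probe sets, which was so for 9 members, the 1 with the highest mean over the 6 arrays stood for it. Another 7 genes of the family (Mrpl30, Mrpl33, Mrpl41, Mrpl43, Mrpl44, Mrpl53 and Mrps6) lay only on probe sets shared with another gene and were not analysed here. The study compared 3 mice labelled Tifab-/- (KO) with 3 mice labelled Tifab+/+ (WT), 1 array each. Both groups were recipients of transplanted marrow of the named genotype, were labelled 3 months, and are described with lethal irradiation of Boy/J recipients by 7.0 Gy and 4.75 Gy given 3 hours apart. The labels do not settle whether the 3 months are an age or a time since transplantation, give no construct for the Tifab deletion, and name no donor marker in the sort. Whether recipient cells are among those sorted is therefore not known.

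Mitochondria carry their own ribosome, which translates only the messages encoded by mitochondrial DNA, all of them for subunits of the respiratory chain and ATP synthase in mammals. Its RNAs come from mitochondrial DNA, while all of its proteins are encoded in the nucleus, made in the cytosol and imported. Genes named Mrpl encode proteins of the large subunit, where peptide bonds form, and genes named Mrps mostly encode proteins of the small subunit, where messages are decoded. Hematopoietic stem cells are known to rely less on respiration than their cycling progeny do.

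The arrays correlated across genes at r = 0.985 to 0.986 within KO, 0.976 to 0.979 within WT and 0.975 to 0.983 between the groups, and genes are not independent replicates. On the log2 scale Tifab itself was at 5.21, 5.12 and 5.26 in KO and 4.99, 5.37 and 5.53 in WT, without separating the groups (limma adjusted p = 0.885). No source used here places its probes relative to the deletion, so the groups are called KO and WT by their labels alone. Among 10 measured LSK markers, Kit averaged 9.52 in KO and 9.59 in WT, and Cd34 averaged 10.5 in KO and 10.4 in WT. Meis1 was higher in KO, at a log2 fold change of 0.39 ± 0.13, and Hlf lower, at -0.33 ± 0.13 (SE), each at an unadjusted limma p under 0.05 and without overlap (limma adjusted p = 0.384 and 0.456), while Flt3 had -0.24 ± 0.13 (SE). Of all genes, 4.74% were higher and 5.51% lower at that threshold, and 7.75% had all KO arrays above and 8.37% below the WT arrays. The part of these markers in the results was not tested. Ly6a, the gene of Sca1, was not analysed here. In these bulk samples fewer cells of a type and less RNA per cell cannot be told apart.

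The promoters of the family show which regulatory letters its members share, and those of Mrps16, Mrps18c, Mrpl42, Mrpl12 and Mrpl52 are printed because the results turn on these genes or, for Mrpl52, because it had the brightest probe set. Each window runs from 250 bases before to 50 bases after the RefSeq start in GRCm38.p6 and is written on the strand of the gene. Capitals mark matches, on either strand, to 4 motifs. They are CCGGAAG, the core bound by ETS factors such as GABP, the GC-rich palindrome bound by NRF1, with 1 free base near its centre, AAGATGG, bound by YY1, and CACGTG, the E-box bound by MYC with MAX. The window of Mrps16 is chr14:20393441-20393740 on the minus strand and is 1 of its 2 windows. That of Mrps18c is chr5:100798509-100798808 on the plus strand, that of Mrpl42 is chr10:95501900-95502199 on the minus strand, that of Mrpl12 is chr11:120484387-120484686 on the plus strand and that of Mrpl52 is chr14:54426659-54426958 on the plus strand.
Mrps16: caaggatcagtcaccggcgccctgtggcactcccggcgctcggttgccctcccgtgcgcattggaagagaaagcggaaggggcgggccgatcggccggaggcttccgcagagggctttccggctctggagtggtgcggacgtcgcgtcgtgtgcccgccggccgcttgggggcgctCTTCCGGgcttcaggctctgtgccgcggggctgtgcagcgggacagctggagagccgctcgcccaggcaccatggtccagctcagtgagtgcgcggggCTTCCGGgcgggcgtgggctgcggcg
Mrps18c: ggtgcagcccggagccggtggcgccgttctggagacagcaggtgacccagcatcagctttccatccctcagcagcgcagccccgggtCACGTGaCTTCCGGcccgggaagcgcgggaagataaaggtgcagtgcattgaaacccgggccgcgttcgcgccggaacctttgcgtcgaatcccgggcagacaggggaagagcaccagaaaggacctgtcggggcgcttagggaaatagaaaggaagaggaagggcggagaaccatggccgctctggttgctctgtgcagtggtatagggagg
Mrpl42: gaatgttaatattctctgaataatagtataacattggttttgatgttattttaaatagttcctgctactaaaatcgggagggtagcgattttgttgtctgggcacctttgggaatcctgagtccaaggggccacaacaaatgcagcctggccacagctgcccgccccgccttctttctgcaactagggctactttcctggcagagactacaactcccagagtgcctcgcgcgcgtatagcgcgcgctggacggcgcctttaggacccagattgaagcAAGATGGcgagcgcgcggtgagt
Mrpl12: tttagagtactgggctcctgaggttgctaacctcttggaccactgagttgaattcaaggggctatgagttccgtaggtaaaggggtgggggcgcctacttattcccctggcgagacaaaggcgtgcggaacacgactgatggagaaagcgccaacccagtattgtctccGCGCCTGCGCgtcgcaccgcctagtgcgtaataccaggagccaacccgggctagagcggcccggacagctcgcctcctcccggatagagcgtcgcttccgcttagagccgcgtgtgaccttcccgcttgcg
Mrpl52: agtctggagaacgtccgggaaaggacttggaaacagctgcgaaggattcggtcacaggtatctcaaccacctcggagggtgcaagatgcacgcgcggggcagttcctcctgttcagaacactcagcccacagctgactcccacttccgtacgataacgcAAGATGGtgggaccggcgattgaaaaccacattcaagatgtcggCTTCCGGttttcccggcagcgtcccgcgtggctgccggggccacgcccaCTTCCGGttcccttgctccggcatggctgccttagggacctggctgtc

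RefSeq windows were found for 62 of the 71 members. Mrpl4, Mrpl13, Mrpl15, Mrpl19, Mrpl38, Mrpl54, Mrps28, Mrps34 and Mrps35 had none in the table. The ETS core stood in 23 of 62 members (37.1%), against 9.93% of all 27025 genes with a window and 24.1% of the 3555 of them in the 2 brightest signal deciles of the array. Mrps16 held 2 ETS matches, beginning at -74 and 25 from its start, both on the opposite strand, and Mrpl52 held 2 as well, beside a YY1 match. Of the 26 ETS matches in member windows, 14 began within 100 bases before the start and 9 after it. The YY1 motif stood in 13 of 62 members, against 7.28% of all genes and 9.90% of the bright ones, and in Mrpl42 it began at 28. The NRF1 motif stood in 11 members (17.7%), against 5.19% and 14.1%, and in Mrpl12 it began at -81. The E-box stood in 5 members (8.06%), against 8.09% and 13.0%, and in Mrps18c it lay next to an ETS match. No matches to different motifs overlapped in a member window, though NRF1 matches overlapped each other in Mrps26, and Mrpl9, Mrpl32 and Mrpl39 matched NRF1 on both strands at the same place. In all, 22 members held none of the 4 motifs. These matches describe letters in the windows, and binding was not measured.

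No member was shown to differ between the genotypes, and no estimated difference reached 1.5-fold. In limma, 0 of 71 members and 0 of all genes (0% of 22180) passed an adjusted p of 0.05, the lowest adjusted p among members being 0.362. At an unadjusted p under 0.05, 4 members were higher in KO and 0 were lower. That is 5.63% of members higher, against 4.74% of all genes higher, 5.51% lower and 10.3% in either direction, so the share of higher members was near the background. Mrpl38, Mrps18c, Mrps16 and Mrpl42 were these members. The count higher was 2 of 71 without KO replicate 2, where 3.77% of all genes were higher. It was 9 of 71 without WT replicate 3, where 5.61% of all genes were higher, a larger share of members than of all genes. After quantile normalization, cyclic loess or median centring, the split was 3 higher (Mrpl38, Mrps18c and Mrps16) and 1 lower (Mrpl27). The 95% interval lay inside 1.5-fold both ways for 44 of 71 members and inside 2-fold for 69.

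**Figure D1:**
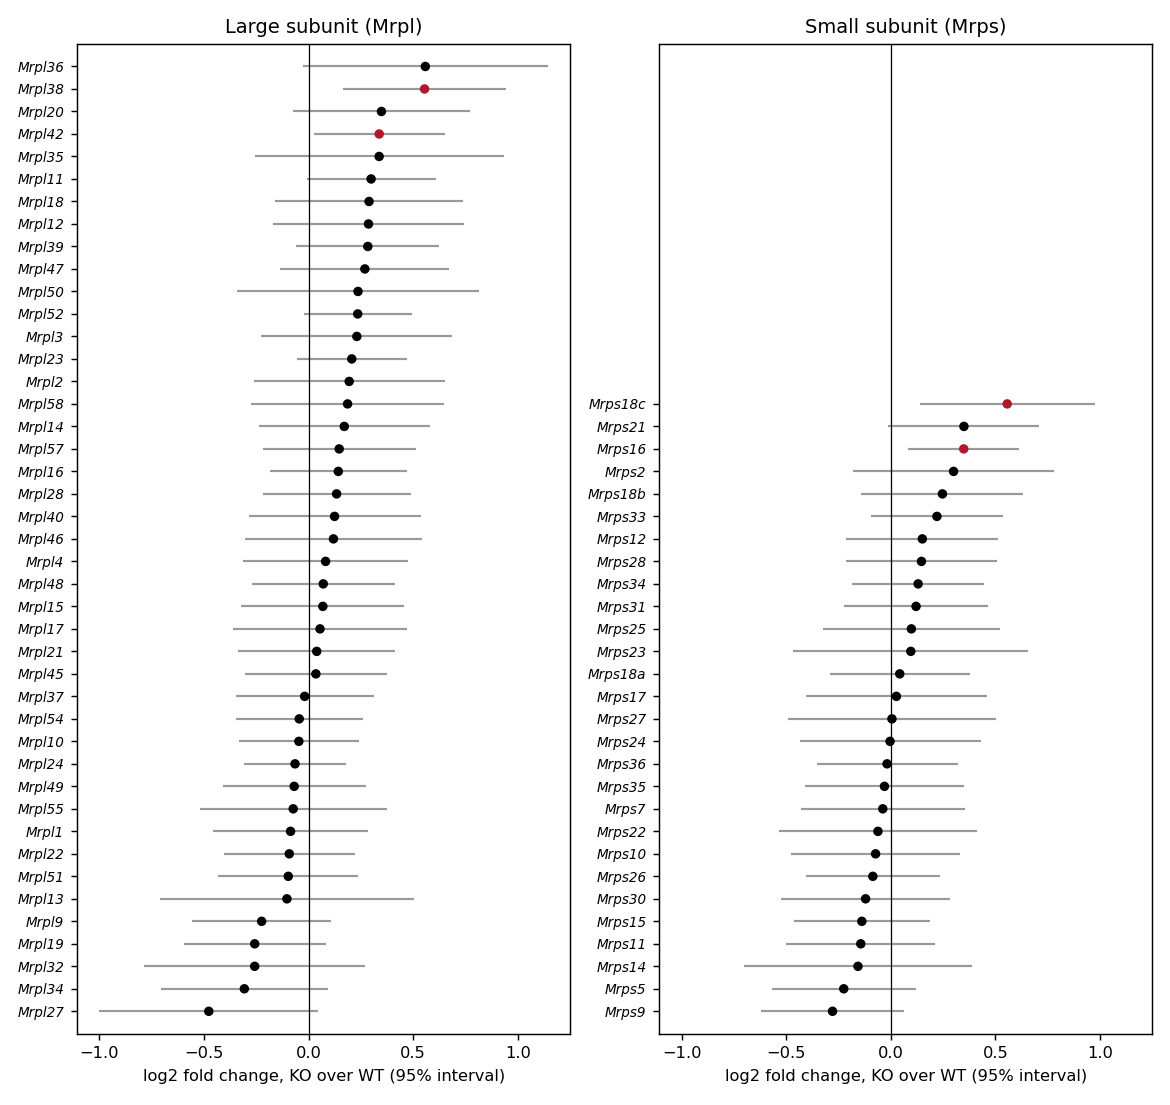
Log2 fold change of KO over WT with its 95% limma interval for each of the 43 large subunit and 28 small subunit members, ordered by size within each panel, where red marks an unadjusted p under 0.05. The 4 red members, Mrpl38 and Mrpl42 on the left and Mrps18c and Mrps16 on the right, have intervals above 0, and all other intervals cross it.

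Mrpl38, a large subunit protein found in mitochondrial but not in bacterial ribosomes, read 6.39, 6.18 and 6.60 in KO and 5.73, 6.04 and 5.73 in WT. Its KO arrays all lay above its WT arrays, a log2 fold change of 0.55 ± 0.17 (SE, n = 3 each, limma adjusted p = 0.362), and leaving out single arrays gave 0.45 to 0.66. Mrps18c, 1 of 3 paralogs that descend from the bacterial S18 protein, read 6.59, 6.46 and 6.43 in KO and 5.61, 5.95 and 6.25 in WT. Its groups did not overlap either, with WT replicate 1 the lowest, and the log2 fold change was 0.56 ± 0.19 (SE, n = 3 each, limma adjusted p = 0.385), or 0.39 without that array. Without KO replicate 1 it was 0.51 and no longer under an unadjusted p of 0.05. A second probe set of Mrps18c gave 0.38 ± 0.20 (SE).

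Mrps16, the S16 protein of the small subunit, whose mutation causes a respiratory chain defect in humans, gave the brightest small subunit probe set. It read 9.57, 9.83 and 9.70 in KO and 9.29, 9.23 and 9.52 in WT, without overlap. The log2 fold change was 0.35 ± 0.12 (SE, n = 3 each, limma adjusted p = 0.386). Its second probe set gave 0.09 ± 0.16 (SE), so only 1 of the 2 probe sets passed. Without KO replicate 2 (0.28) or WT replicate 2 (0.29) Mrps16 missed the unadjusted threshold. Mrpl42, a large subunit protein without a bacterial counterpart, read 9.33, 9.54 and 9.07 in KO and 8.84, 9.10 and 8.998 in WT. The groups overlapped by KO replicate 3, and the log2 fold change of 0.34 ± 0.14 (SE, limma adjusted p = 0.468) was 0.22 without KO replicate 2. Mrpl42 also missed the unadjusted threshold without KO replicate 1 (0.33), WT replicate 1 (0.27) or WT replicate 3 (0.35).

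**Figure D2:**
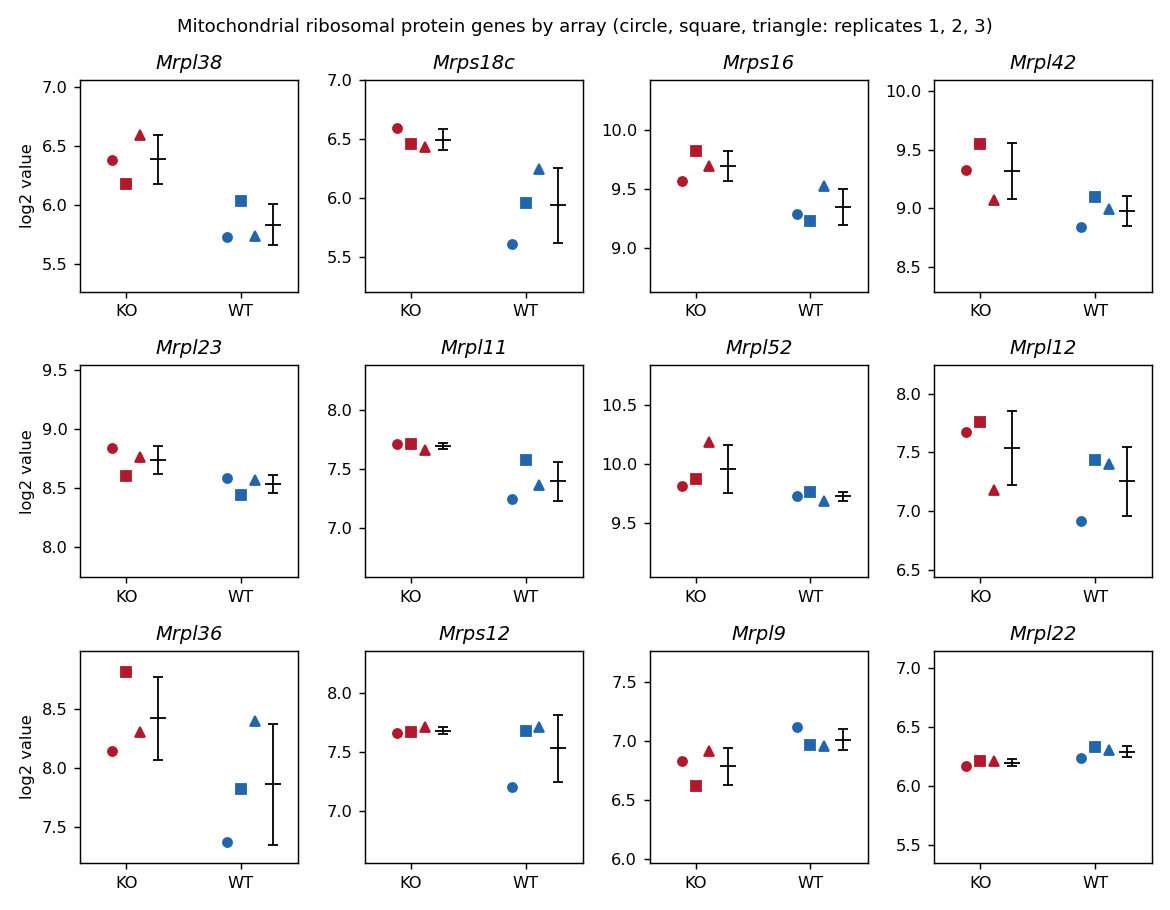
Log2 values of 12 members by array, KO left of WT, with each panel spanning the same range on the log2 scale and bars giving the mean and SD of 3 arrays. Mrpl38, Mrps18c, Mrps16, Mrpl11, Mrpl23 and Mrpl52 have all KO points above all WT points, and Mrpl9 and Mrpl22 have all KO points below. WT replicate 1 (circle) is the low point of Mrps18c, Mrpl42, Mrpl11, Mrps12, Mrpl12 and Mrpl36 and, by a small margin, of Mrpl38.

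Among the 71 members, 6 had all KO arrays above all WT arrays (8.45%, against 7.75% of all genes) and 2 had them below (2.82%, against 8.37%). Beside Mrpl38, Mrps18c and Mrps16, the first group held Mrpl11, Mrpl23 and Mrpl52. The second group was Mrpl9 and Mrpl22. Mrpl9, the L9 protein, averaged 6.78 ± 0.16 in KO and 7.01 ± 0.09 in WT (SD, n = 3 each), the larger of the 2 non-overlapping negative differences, at a log2 fold change of -0.22 ± 0.15 (SE, limma adjusted p = 0.623). Mrpl27 had the most negative log2 fold change, -0.48 ± 0.23 (SE, limma adjusted p = 0.513), on a dim probe set whose groups overlapped. The most positive was that of Mrpl36, the small L36 protein, which read 8.14, 8.82 and 8.30 in KO and 7.37, 7.82 and 8.40 in WT, a log2 fold change of 0.56 ± 0.26 (SE, limma adjusted p = 0.496). Its groups overlapped through WT replicate 3, and a second probe set gave 0.49 ± 0.26 (SE).

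The stalk of the large subunit recruits translation factors through Mrpl10, Mrpl11 and Mrpl12. Mrpl11, which forms the base of the stalk, read 7.71, 7.71 and 7.66 in KO and 7.25, 7.58 and 7.37 in WT, without overlap, at a log2 fold change of 0.30 ± 0.14 (SE, limma adjusted p = 0.492). Mrpl12, the stalk protein also reported to bind the mitochondrial RNA polymerase, read 7.68, 7.76 and 7.18 in KO and 6.92, 7.44 and 7.40 in WT. Its groups overlapped through KO replicate 3, and the log2 fold change was 0.29 ± 0.20 (SE, limma adjusted p = 0.651), or 0.12 without WT replicate 1. A second Mrpl12 probe set of nearly the same brightness gave 0.61 ± 0.18 (SE, limma adjusted p = 0.357 over all probe sets), so the choice of probe set decided which side of the unadjusted threshold Mrpl12 fell on. Mrpl10, which anchors Mrpl12, had -0.05 ± 0.13 (SE).

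Proteins at the peptidyl transferase core and at the exit of the nascent chain did not pass the unadjusted threshold. Mrpl2, Mrpl3 and Mrpl4, counterparts of bacterial L2, L3 and L4 that pack against the core rRNA, had log2 fold changes of 0.19 ± 0.20, 0.23 ± 0.20 and 0.08 ± 0.18 (SE). Mrpl2 was -0.03 without KO replicate 2. Around the exit tunnel, Mrpl23 had 0.21 ± 0.12, Mrpl22 had -0.09 ± 0.14 and Mrpl24 had -0.07 ± 0.11 (SE). Mrpl23 read 8.84, 8.60 and 8.76 in KO and 8.58, 8.44 and 8.57 in WT, which just separated the groups. Mrpl45, which holds the ribosome to the inner membrane, had 0.03 ± 0.15 and Mrpl37, a protein of the mitochondrial ribosome alone, had -0.02 ± 0.15 (SE).

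In the small subunit, the decoding protein Mrps12 read 7.66, 7.67 and 7.71 in KO and 7.21, 7.68 and 7.71 in WT. WT replicate 1 stood below the other 5 arrays, and the log2 fold change of 0.15 ± 0.16 (SE) was -0.01 without it. Mrps2, Mrps5, Mrps7 and Mrps15, the counterparts of bacterial S2, S5, S7 and S15, had 0.30 ± 0.21, -0.22 ± 0.15, -0.04 ± 0.17 and -0.14 ± 0.14 (SE). Mrps22 and Mrps34, in which mutations cause mitochondrial disease in humans, had -0.06 ± 0.21 and 0.13 ± 0.14 (SE). Mrps27, a pentatricopeptide repeat protein, had 0.01 ± 0.22 (SE). The paralogs of Mrps18c, Mrps18a and Mrps18b, had 0.04 ± 0.15 and 0.25 ± 0.17 (SE), against 0.56 for Mrps18c. A test of the difference between paralogs was not run.

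3 members carry names that do not match their place in the particle. Mrps30 and Mrps18a lie in the large subunit by structure, with log2 fold changes of -0.12 ± 0.18 and 0.04 ± 0.15 (SE). Mrps36 is now regarded as a part of the 2-oxoglutarate dehydrogenase complex and not of the ribosome, and had -0.02 ± 0.15 (SE) on a dim probe set. Among the other bright or dim probe sets of the family, Mrpl52 read 9.82, 9.87 and 10.19 in KO and 9.73, 9.76 and 9.68 in WT, a log2 fold change of 0.23 ± 0.11 (SE, limma adjusted p = 0.516). Mrps24 and Mrps17 had -0.0037 ± 0.19 and 0.03 ± 0.19 (SE), and Mrpl1 and the dim Mrps14 had -0.09 ± 0.16 and -0.16 ± 0.24 (SE).

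As a set, members sat slightly above 0. Of 71 members, 43 had a positive log2 fold change and 28 a negative one, with a median of 0.07 and a mean of 0.07, against a median of 0.00 over all genes. The mean over all members was 6.99, 7.02 and 7.01 in the KO arrays and 6.82, 6.97 and 7.00 in the WT arrays. The KO arrays were close together (SD 0.018) and the WT arrays were spread (SD 0.094), with WT replicate 1 lowest. In that array 31 of 71 members had their lowest value (43.7%), against 21.7% of all genes and 29.9% of the genes in the 2 brightest deciles. Without it the median over members was 0.02, and 37 members were positive and 34 negative, whereas without WT replicate 2 the median was 0.11.

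Among markers of other cells, WT replicate 1 was the highest array in neutrophil and in T and NK cell genes but not in the other lists. The mean of 13 neutrophil genes was 7.23, 7.01 and 7.05 in KO and 7.54, 7.16 and 7.25 in WT, so it was highest in WT replicate 1, and 10 of the 13 genes had lower means in KO, 3 of them reaching the unadjusted threshold (23.1%, against 5.51% of all genes lower). The mean of 8 T and NK cell genes, 4.52 to 4.59 in KO and 4.33 to 4.77 in WT, was also highest there and was lowest in WT replicate 3. Their part in the level of the members was not tested. The mean of 15 cell cycle genes was 8.29 to 8.39 in KO and 8.23 to 8.33 in WT, with the lowest value in WT replicate 1. Of these genes 2 were higher in KO at the unadjusted threshold (13.3%, against 4.74% of all genes higher). Macrophage genes (9) averaged 4.68 to 4.85 in KO and 4.66 to 4.88 in WT but went both ways, with 3 of 9 past the unadjusted threshold (33.3%, against 10.3% of all genes). Of these, Vcam1 (-0.74 ± 0.23) and C1qb (-0.51 ± 0.16) were lower and C1qa (0.52 ± 0.17) higher (SE), all without overlap between groups. B and plasma cell genes (8) averaged 5.26 to 5.75 in KO and 5.11 to 5.87 in WT, with the lowest value in WT replicate 1. Erythroid genes (4) averaged 5.91 to 6.08 in KO and 6.09 to 6.25 in WT. Both lists were highest in WT replicate 3.

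The difference between the large and the small subunit was within the spread between arrays. Among Mrpl genes the median of log2 fold changes was 0.12, with 28 of 43 positive and 2 higher at an unadjusted p under 0.05 (4.65%). Among Mrps genes it was 0.02, with 15 of 28 positive and 2 higher at that threshold (7.14%). Over all genes 4.74% were higher. The mean of Mrpl genes was 7.08, 7.13 and 7.14 in KO and 6.92, 7.04 and 7.11 in WT. The mean of Mrps genes was 6.84, 6.86 and 6.82 in KO and 6.68, 6.86 and 6.83 in WT. The large mean minus the small mean was 0.24, 0.27 and 0.31 in KO and 0.24, 0.18 and 0.28 in WT, overlapping ranges whose means differed by 0.036, less than the SD within KO (0.040) or WT (0.048). Without WT replicate 1 the medians were 0.05 for Mrpl and -0.03 for Mrps genes, and without KO replicate 3 the order turned, with 0.04 for Mrpl and 0.06 for Mrps genes. Without WT replicate 2 both medians were 0.11. The Mrps median was also negative after quantile normalization (-0.03), cyclic loess (-0.02) and median centring (-0.04). With Mrps30 and Mrps18a counted in the large subunit and Mrps36 left out, the means differed by 0.02.

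**Figure D3:**
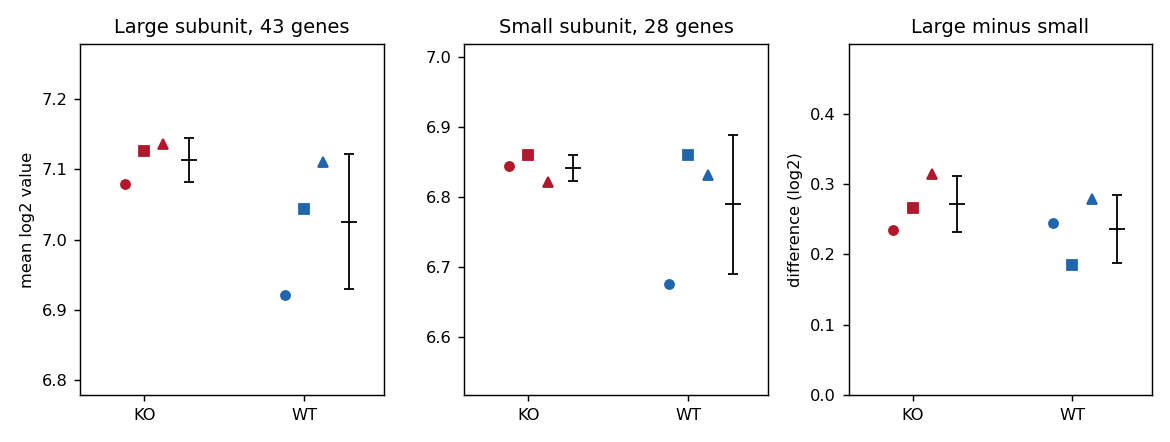
Mean log2 value of the 43 Mrpl genes and of the 28 Mrps genes on each array, and their difference, KO left of WT, with bars giving the mean and SD of 3 arrays. In both subunits WT replicate 1 is lowest and WT replicate 3 lies within the range of the KO arrays.

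Fold changes on these arrays move with signal level, and the members are bright: 51 of 71 fall in the 2 brightest deciles of genes and 0 in the 4 dimmest. The median log2 fold change of all genes was -0.17 in the dimmest decile, 0.01 in the ninth, where 30 members lie, and 0.05 in the tenth, where 21 lie. The members' own medians in these 2 bright deciles were 0.07 and 0.15. Against the median of all genes in its own decile, the median member lay 0.06 higher, and 41 members were above and 30 below. This distance was 0.02 without WT replicate 1 and 0.03 without KO replicate 2 or KO replicate 3, and at most 0.09 with any other array left out. In the 2 brightest deciles, 3.92% of members and 6.31% of all genes were higher at an unadjusted p under 0.05, while 0% of members and 3.90% of all genes were lower.

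**Figure D4:**
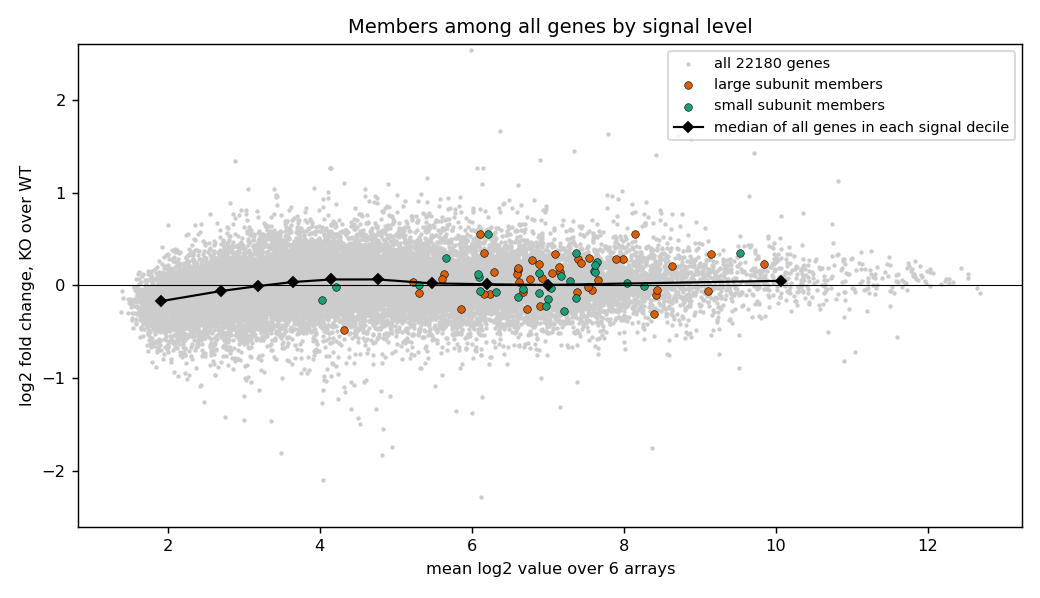
Log2 fold change of KO over WT against mean log2 value over 6 arrays for all 22180 genes (grey) and for the large (orange) and small (green) subunit members, with the median of all genes in each signal decile (black diamonds, drawn at the middle of the decile's range). Members lie within the grey cloud at mean levels of 4.03 to 9.84, between log2 fold changes of -0.48 and 0.56.

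Other genes that serve the mitochondrial ribosome were described in the same way. Of the mitoribosomal proteins that carry other names, Gadd45gip1 had a log2 fold change of 0.46 ± 0.19 (SE, limma adjusted p = 0.473), Dap3 had 0.21 ± 0.17 and Ptcd3 had -0.22 ± 0.18 (SE). Of 14 mitochondrial translation factors and insertion proteins, 9 were positive, 5 negative and 0 passed an unadjusted p of 0.05 (median 0.09). Their lowest p values were at Mtrf1, a release factor relative, with 0.38 ± 0.17, Mtif3, an initiation factor, with 0.61 ± 0.28, and Letm1, an inner membrane protein, with 0.27 ± 0.17 (SE). Of 24 genes of mitoribosome assembly and rRNA modification, 13 were positive, 11 negative and 0 passed (median 0.03). Over all genes 10.3% passed an unadjusted p of 0.05 in either direction. The rRNA methyltransferase gene Mrm2 had 0.36 ± 0.17, Nsun4 had 0.30 ± 0.17 and the large subunit assembly factor gene Malsu1 had 0.35 ± 0.21 (SE).

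Of 16 mitochondrial aminoacyl-tRNA synthetase genes, which charge the tRNAs that the ribosome reads, 3 were higher at an unadjusted p under 0.05 and 0 lower (18.8% higher, against 4.74% of all genes higher and 5.51% lower, median 0.06). Pars2 averaged 4.32 ± 0.09 in KO and 3.82 ± 0.06 in WT (SD, n = 3 each), a log2 fold change of 0.51 ± 0.15 (SE, limma adjusted p = 0.354). Ears2 had 0.58 ± 0.20 and Yars2 0.44 ± 0.17 (SE). Of 21 genes of mitochondrial DNA maintenance, transcription and RNA handling, 2 were higher and 0 lower at that threshold (9.52% higher, median 0.00). They were Ssbp1, the single-strand DNA binding protein of mitochondria, at 0.57 ± 0.14, and Pnpt1, a polynucleotide phosphorylase, at 0.46 ± 0.15 (SE, limma adjusted p = 0.334 and 0.385). Tfb2m, a transcription factor of mitochondrial DNA, had 0.40 ± 0.20 (SE).

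Among 11 regulators of nuclear genes for mitochondria, Mycn alone was past an unadjusted p of 0.05 (9.09% higher, against 4.74% of all genes higher). Mycn averaged 5.46 ± 0.12 in KO and 4.98 ± 0.04 in WT (SD, n = 3 each), a log2 fold change of 0.48 ± 0.15 (SE, limma adjusted p = 0.362). Myc had 0.25 ± 0.13 and Gabpb1, the partner of the ETS factor Gabpa, had -0.28 ± 0.15 (SE), both without overlap between groups. Members with an ETS match had a median log2 fold change of 0.10 and those without 0.03. For NRF1 the medians were 0.05 with and 0.10 without, and for YY1 0.01 with and 0.10 without. The 5 members with an E-box had a median of 0.35 and those without 0.05. These 5 ran from -0.02 for Mrpl37 to 0.56 for Mrpl36. In Mrps18c, Mrpl20, Mrpl36 and Mrpl37 the lowest array was WT replicate 1, and in Mrpl2 it was WT replicate 2. A part of any motif or regulator in these medians was not tested.

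Among the measured messages that the mitochondrial ribosome translates, most were higher in KO. COX2, ATP6 and ATP8 were not analysed here. Of 10 measured mRNAs of mitochondrial DNA, 9 were higher in KO and 1 lower by the unadjusted threshold of 0.05. Over all genes 4.74% were higher and 5.51% lower. In all 10 the KO and WT arrays did not overlap, 9 with KO above and 1 with KO below, against 7.75% and 8.37% of all genes. Under adjustment over all genes 0 passed (lowest limma adjusted p = 0.297). CYTB, of respiratory complex III, read 11.98, 11.90 and 12.02 in KO and 11.72, 11.60 and 11.77 in WT, a log2 fold change of 0.27 ± 0.07 (SE, limma adjusted p = 0.334). COX3 and COX1, core subunits of complex IV, had 0.24 ± 0.06 and 0.21 ± 0.06 (SE). The complex I genes ND1, ND2, ND4, ND4L, ND5 and ND6 lay between 0.15 and 0.29. ND3, another complex I gene, went the other way, with 11.50, 11.11 and 11.33 in KO and 11.69, 11.86 and 12.06 in WT and a log2 fold change of -0.56 ± 0.12 (SE, limma adjusted p = 0.297). These mRNAs are cut from long shared transcripts, so they are not independent of each other. The median over the 10 was 0.20, against 0.06 over the 85 other genes at least as bright, of which 14.1% were higher at an unadjusted p under 0.05. The count of 9 depended on the fit and the scaling: it was 0 without the intensity trend in limma, 3 after quantile normalization, 2 after cyclic loess and 5 after median centring, with ND3 lower in each. Whether the groups stayed apart was not recounted under these settings.

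**Figure D5:**
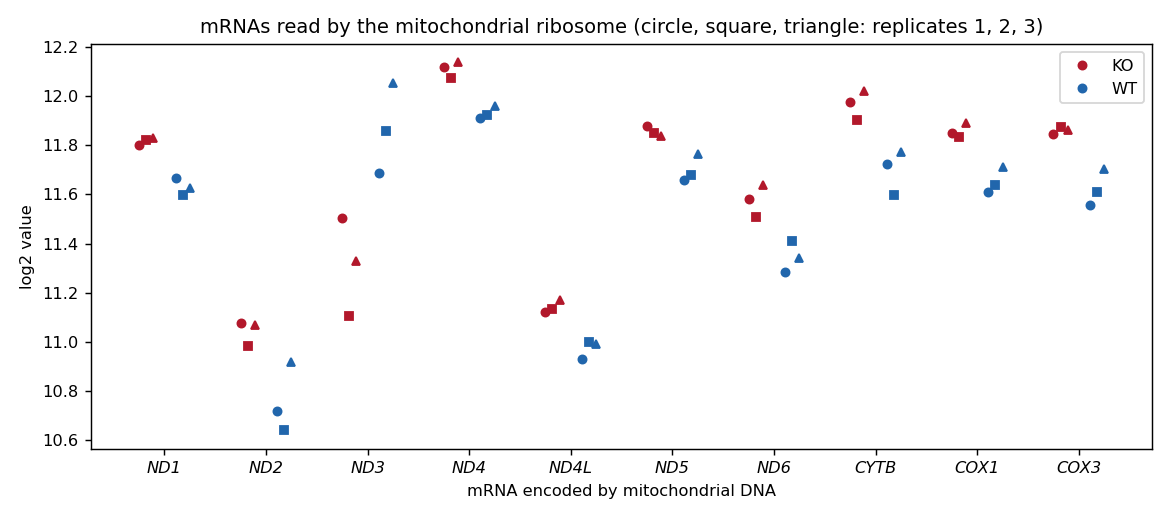
Log2 values of 10 mRNAs of mitochondrial DNA on each array, KO left of WT for each gene. KO points lie above WT points for every gene shown except ND3, where they lie below.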

How the data were processed

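RNA from 6 sorted LSK samples was measured on Affymetrix MoGene 2.0 ST arrays after amplification with the NuGEN Ovation Pico WTA kit, per the labels' protocols. The deposited table holds log2 values for 41345 probe sets on each array, which the authors made with Affymetrix Expression Console per the submitters' processing notes. How the background, summary and normalization were set, and the version, were not given in the sources used here. Array medians lay between 4.05 and 4.10, and no further normalization was applied in the main fit. Similar medians do not show that the arrays were aligned at every signal level, so other scalings were run as alternatives. A common scale of the arrays cannot show whether total RNA differed, and the number of arrays limits the precision.

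Gene names came from the supplied platform annotation, which gave 1 symbol for 23521 probe sets and several for 1814, left out here, and did not list 16010. By Entrez identifier, 23328 probe sets were found in RefSeq's GRCm38.p6 gene table, with 0 symbols updated. The probe set with the highest mean stood for each of 22180 genes. KO and WT were compared with limma 3.58.1 in R 4.3.3 (lmFit, eBayes with intensity trend, genotype as the only term, two-sided, Benjamini-Hochberg adjustment over all genes, threshold 0.05). Every fold change is log2 of KO over WT and every interval is at 95%. The fit was tested on simulated data. Signal deciles divide the genes into 10 groups by mean value. Sets of genes were described by counts, medians and array means, without a test. Each group has 3 mice per the labels.

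The text names members with an unadjusted p under 0.05, members chosen for their role, the 3 brightest and 3 dimmest of each subunit, the largest non-overlapping differences, and up to 3 genes per other list. Some members were named outside that rule for an array value, a probe set or a motif (Mrpl20, Mrpl36, Mrps26, Mrpl32 and Mrpl39). They were chosen after their values or windows were seen, as were Gabpa, Kit, Cd34 and the 10 measured mitochondrial mRNAs. The 7 genes on shared probe sets and the members without a window were listed in full. The members and lists were chosen with earlier results of these data known. As alternatives the fit was repeated with quantile, cyclic loess or median scaling, with robust or untrended eBayes, with array weights, without dim genes (below the 40th percentile), with probe sets averaged or tested singly, with the replicate number blocked, and with single arrays dropped. Calls with a fold minimum, 20 signal bins and subunits assigned by structure were tried too. The recount of mitochondrial mRNAs under all these settings, and the split of members around 0, were added after seeing the data. Same-numbered samples deviated together at r = 0.02, -0.03 and -0.09 across genes, so the numbers were not taken to pair the mice.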

Additional observations from a re-analysis of the deposited data

How the results depend on the processing

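Members past the adjusted threshold numbered 0 under every alternative run. Over all genes the count was 0 to 1 when single arrays were left out, the 1 being no member, and 0 otherwise. The count of members higher at an unadjusted p under 0.05 ran from 2 to 9 over single arrays left out and from 3 to 5 under the other settings. The share of all genes higher ran from 3.51% (without KO replicate 1) to 5.61% (without WT replicate 3) over single arrays left out. Under the other scalings and fits it ran from 3.03% to 5.73%. Members lower numbered 1 after quantile normalization, cyclic loess or median centring (Mrpl27 each time) and 0 to 2 over single arrays left out. Of all genes, 3.84% to 6.62% were lower over single arrays left out. Under median centring 3.03% of all genes were higher and 8.31% lower. With the replicate block 5 members were higher, Mrpl36 joining the other 4, and 0 passed adjustment. Same-numbered samples did not deviate together, so this block has no basis in the design. The member median stayed between 0.01 and 0.11, its distance from equally bright genes between 0.02 and 0.09, and the large minus small difference between 0.01 and 0.06 under every setting run. Mitochondrial mRNAs higher numbered 0 without the intensity trend, 3 after quantile normalization, 2 after cyclic loess and 5 after median centring, and under these scalings their median was 0.10 (quantile), 0.0922 (loess) and 0.14 (centring). The cause was not tested. Of 34 named members 15 changed sign under at least 1 of 15 alternatives. With 3 arrays a group, the 95% half-width of members ran from 0.242 to 0.606, with a median of 0.382. An estimated difference smaller than a member's own half-width could not be told from 0 even before adjustment. Signal over background is not known.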
